A study of Mus musculus with 300 samples.

Results

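Organic ion and drug transporters are the membrane proteins that carry drugs, hormones, bile pigments, urate and other organic acids and bases across liver and kidney cells. The genes described here were taken by name: every measured gene whose symbol begins with Slc22a, Slco or Slc47a, or with Abcc or Abcb and a digit, apart from Slc22a5, Slco1a1, Abcc3 and Abcb11. This gave 51 genes of the 18193 on the array: 1 organic cation transporter, 4 carnitine and zwitterion transporters, 11 organic anion transporters, 4 other Slc22a genes, 1 multidrug and toxin extrusion transporter, 14 organic anion transporting polypeptides (Slco), 9 Abcc genes and 7 Abcb genes. The rule uses names and no measured value. The name does not stand for 1 function, since Abcc8 and Abcc9 encode the sulfonylurea receptors of potassium channels, and Abcb6, Abcb8 and Abcb10 encode proteins of inner cell membranes.

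The mice were given 1 of 3 agonists of the PPAR nuclear receptors by mouth at 10 mg/kg: WY14643 for PPAR-alpha, GW501516 for PPAR-delta or rosiglitazone for PPAR-gamma. Others were given vehicle. Liver and kidney of the same animals were taken on days 4, 8 and 15, with 5 animals a day for each compound and 10 a day for vehicle, so that 75 arrays stood in each tissue. Strain, sex, age and hour of collection were not given in the sources used here, and every animal counts as 1 replicate. Each compound was set against same-day vehicle, and its effects on the 3 days were averaged with equal weight, 15 arrays against 30.

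In background, uptake carriers of the Slc22a and Slco families sit mostly on the blood side of hepatocytes and tubule cells, and let organic anions, cations and steroid conjugates in. Export pumps of the Abcc and Abcb families, which use ATP, sit largely on the bile or urine side, together with the proton-coupled extruder Slc47a1. PPAR-alpha is the main receptor of the fasting liver, where it turns on genes of fatty acid oxidation and lowers many genes of xenobiotic handling.

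Values are log2 units of RMA-normalised array signal, and a change is a log2 fold change with its standard error. Calls are limma results with an adjusted p under 0.05 after Benjamini-Hochberg adjustment over all 18193 genes. A gene is termed dim in a tissue where its mean lay below the 40th percentile of all genes there. By that mark 25 members were dim in liver and 17 in kidney, 20 were above it in both, and 11 were dim in both (Abcb1b, Abcc12, Slc22a14, Slc22a16, Slc22a27, Slco1a5, Slco1c1, Slco5a1, Slco6b1, Slco6c1 and Slco6d1). Levels were not compared between genes or tissues, since probe sets differ in brightness. In whole tissue, fewer cells of a type and less RNA per cell cannot be told apart.

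Some arrays stood apart. The kidney array of GW501516, day 8, replicate 1 differed from its group by a median of 0.711 per gene, against 0.156 for the next kidney array. The animal of WY14643, day 4, replicate 2 had the highest mean of 8 acute phase genes in both tissues (13.9 in liver, where the median over arrays was 10.9, and 7.71 in kidney, where it was 4.24). Without these animals and a further WY14643 animal of day 4 with a deviating liver array (replicate 5), 41 of the 58 called member differences kept their call. Where a result described here lost it, the value without the 3 is given beside it. Of 10 measured PPAR targets that served as a check of dosing, 7, 7 and 6 rose in liver with WY14643, GW501516 and rosiglitazone, and 8, 9 and 2 in kidney, with 0 falls in either tissue. Among 17 clock genes, 2, 12 and 12 were called in liver and 1, 8 and 6 in kidney with the same compounds. Fits with the first 2 components of the clock genes as covariates kept 16 of the 58: 9 of 20 against vehicle in liver, 2 of 7 against vehicle in kidney, 1 of 15 between compounds in liver, 3 of 5 between compounds in kidney and 1 of 11 between tissues. The components were computed over the arrays of all groups, without centring by group, and can carry a compound's own effect. A compound effect and a clock difference therefore cannot be told apart in these fits. The part of the clock genes in the results was not tested beyond these fits.

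Promoters of 3 genes are shown, picked after the values were seen: Slco2a1 was called in liver with all 3 compounds, and Abcc2 and Abcb4 are the bile pumps called there with GW501516. Each covers 300 bases at a start site of the RefSeq table (GRCm38.p6), which for Slco2a1 and Abcb4 is not the first base of the gene, and all are on the plus strand. Capitals mark the nuclear receptor half-site AGGTCA.
Slco2a1, chr9:103008237-103008536: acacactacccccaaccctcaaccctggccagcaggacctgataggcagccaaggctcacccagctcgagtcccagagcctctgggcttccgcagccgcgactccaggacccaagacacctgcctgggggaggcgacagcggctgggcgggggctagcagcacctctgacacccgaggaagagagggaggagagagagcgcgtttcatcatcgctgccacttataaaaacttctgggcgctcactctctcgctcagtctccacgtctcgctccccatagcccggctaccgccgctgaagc
Abcc2, chr19:43782058-43782357: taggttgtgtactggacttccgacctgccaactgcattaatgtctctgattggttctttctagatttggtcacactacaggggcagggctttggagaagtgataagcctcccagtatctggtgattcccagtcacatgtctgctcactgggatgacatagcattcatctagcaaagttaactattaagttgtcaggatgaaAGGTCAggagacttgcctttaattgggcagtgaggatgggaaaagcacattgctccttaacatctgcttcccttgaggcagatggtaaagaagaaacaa
Abcb4, chr5:8893471-8893770: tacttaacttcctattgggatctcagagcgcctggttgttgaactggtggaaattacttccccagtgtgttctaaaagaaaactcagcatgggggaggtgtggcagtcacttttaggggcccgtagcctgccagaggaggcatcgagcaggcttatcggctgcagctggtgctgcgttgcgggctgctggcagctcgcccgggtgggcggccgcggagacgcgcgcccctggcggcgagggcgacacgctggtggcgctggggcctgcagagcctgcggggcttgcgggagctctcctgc

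The half-site AGGTCA, read on both strands, stood in 8 of the 49 promoters of the 42 members found in the table, and in 5340 (16.3%) of all 32851 promoters of that length. The repeat of AGGTCA with 1 base of any kind between its copies, the classical PPAR element, was in 0 member promoters and in 13 (0.0396%) of all. The looser form, AGGNCA repeated with 1 base between, was in 0 and in 125 (0.381%). A match describes the letters of this window and no binding was measured.

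Across both tissues 32 of the 51 members were called with no compound, 14 in 1 of the 6 comparisons with vehicle, 2 in 2 and 3 in 3. The 3 were Slc22a7, Slco2a1 and Slc22a18, and 0 members were called in 4 or more. Changes were small: with WY14643 in liver 4 called members changed by at least 1.5-fold, and with GW501516 in liver 1. The counts of this paragraph were not taken over all genes, so they are not read as particular to the members.

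**Figure D1:**
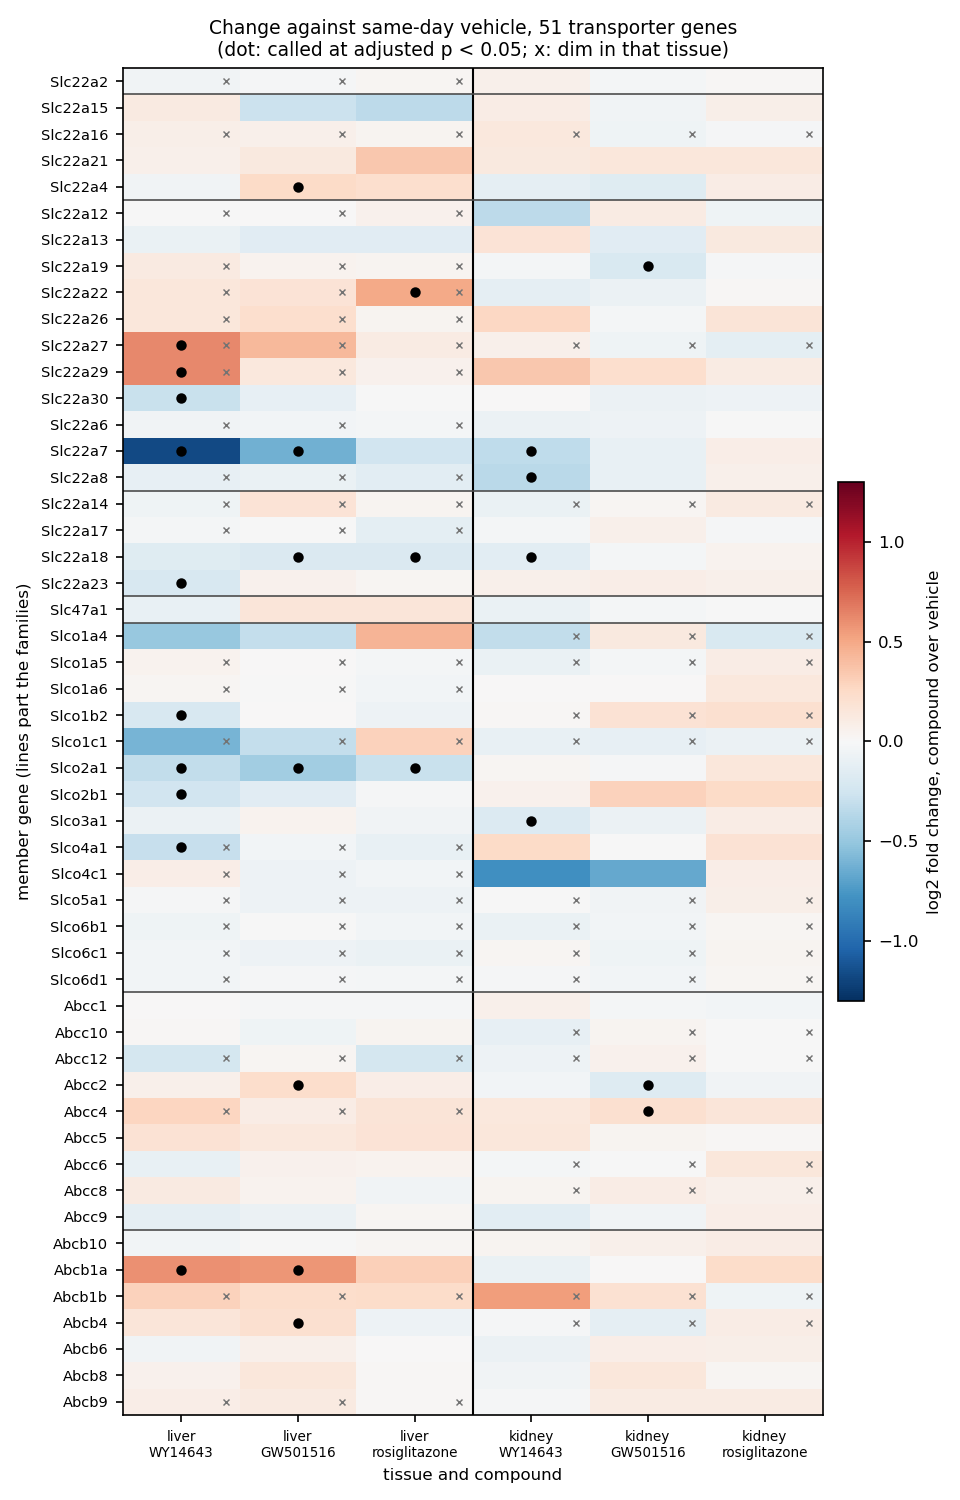
Heat map of the log2 fold change of each of the 51 members (rows, grouped by family) against same-day vehicle, averaged over days 4, 8 and 15, in liver and kidney for WY14643, GW501516 and rosiglitazone (columns). Dots mark calls at an adjusted p under 0.05 and crosses mark dim members: liver Slc22a7 is darkest with WY14643 (-1.17), and the kidney column of rosiglitazone holds 0 dots.

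With WY14643 in liver, 7 members fell and 3 rose, 10 of 51 (19.6%), beside 11.2% of all genes called (5.51% up and 5.72% down). The falls were in 4 of the 14 Slco genes measured and in Slc22a7, Slc22a30 and Slc22a23, with the largest in the organic anion carrier Slc22a7. The rises were the efflux pump Abcb1a and the organic anion transporter genes Slc22a29 and Slc22a27. The median change was -0.04 over the members and -0.01 over all genes.

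Slc22a7 encodes OAT2, an uptake carrier for organic anions and cyclic nucleotides. In WY14643 livers it read 11.46, 8.60, 11.02, 11.32 and 11.08 on day 4, 11.28, 9.25, 10.34, 10.13 and 10.65 on day 8, and 10.08, 10.04, 10.74, 10.87 and 10.14 on day 15. In the 30 vehicle livers the lowest, median and highest values were 11.13, 11.59 and 12.09. The groups overlapped on days 4 and 8 and did not on day 15. The means were 10.47 ± 0.796 (SD, n = 15) with WY14643 and 11.64 ± 0.269 (SD, n = 30) with vehicle, a change of -1.17 ± 0.147 (adjusted p = 5.36e-09, limma), and 15 of 15 treated arrays lay under the same-day vehicle mean. Day by day the change was -1.04, -1.20 and -1.28, each with a standard error of 0.254 and each called. The day 4 call rested on replicate 2, without which that change was -0.51 ± 0.217 (adjusted p = 0.181), while the average over days was -0.998 (adjusted p = 1.80e-09). Without the 3 animals set apart above it was -0.98 (adjusted p = 1.62e-08).

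GW501516 also lowered Slc22a7 in liver. The values were 11.20, 11.48, 11.60, 11.50 and 11.49 on day 4, 11.82, 10.67, 10.66, 11.10 and 11.33 on day 8, and 10.32, 10.74, 9.55, 10.85 and 10.83 on day 15. All 5 day 15 values lay under the lowest vehicle value of any day, while day 4 values were mixed with vehicle. The mean over days was 11.01 ± 0.587 (SD, n = 15) with GW501516 and 11.64 ± 0.269 (SD, n = 30) with vehicle, a change of -0.63 ± 0.147 (adjusted p = 0.00120, limma). By day it was -0.28, -0.42 and -1.19, of which day 15 alone was called (adjusted p = 0.00131), and the difference between days 15 and 4 was not called (-0.91 ± 0.359, adjusted p = 0.539). With the first 2 components of the clock genes as covariates the change was -0.55 (adjusted p = 0.248), and the WY14643 change was -1.13 (adjusted p = 2.34e-08).

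With rosiglitazone liver Slc22a7 ran from 10.58 to 11.84 with a median of 11.45, and was not called (-0.25 ± 0.147, adjusted p = 0.280, limma). The interval of that change, -0.54 to 0.05, reaches into the range seen with GW501516. The fall was 0.93 larger with WY14643 than with rosiglitazone (-0.93, interval -1.26 to -0.59, adjusted p = 2.87e-05), and 0.54 larger than with GW501516 (-0.54, interval -0.88 to -0.20, adjusted p = 0.0467). The second of these was -0.35 (adjusted p = 0.217) without the 3 animals. GW501516 minus rosiglitazone was not called (-0.38, interval -0.72 to -0.05, adjusted p = 0.230).

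**Figure D2:**
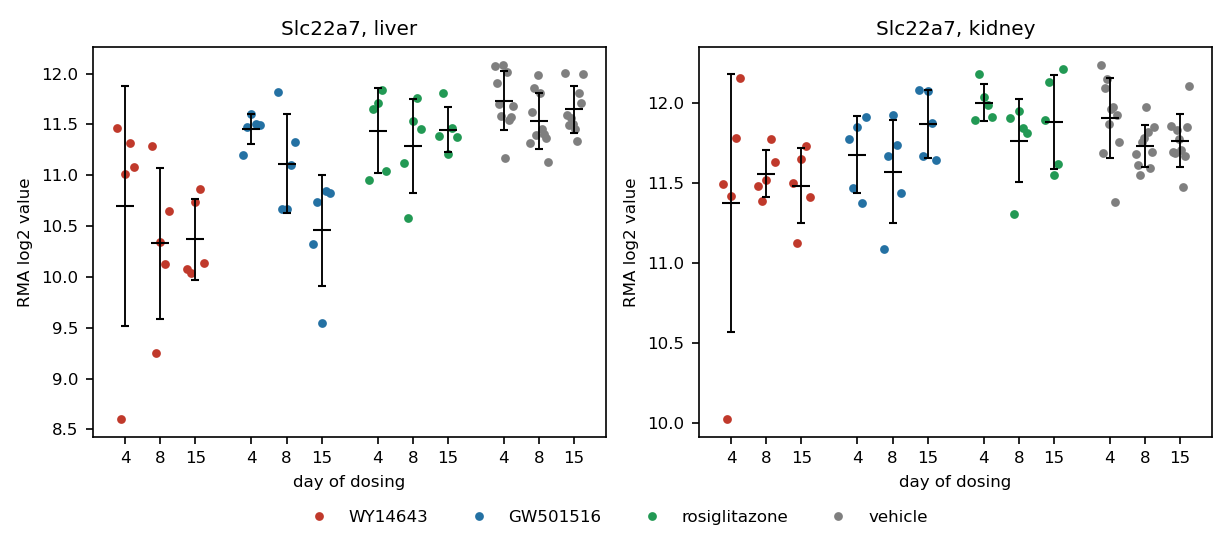
RMA log2 values of Slc22a7 in every array of liver (left) and kidney (right), by compound (WY14643, GW501516, rosiglitazone, then vehicle) and day of dosing, with points for animals and bars for the mean ± SD of each group. In liver the WY14643 values on day 15 (10.04 to 10.87) lie under all vehicle values (11.13 to 12.09), and 1 WY14643 animal of day 4 is lowest in both tissues (8.60 in liver and 10.03 in kidney).

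Slco2a1, the prostaglandin transporter that takes prostaglandins up for breakdown, was the only member lowered by all 3 compounds in 1 tissue, the liver. With WY14643 it read 10.78, 10.17, 10.43, 10.53 and 10.06 on day 4, 10.34, 10.35, 10.47, 10.51 and 10.37 on day 8, and 10.31, 9.98, 10.38, 10.44 and 10.35 on day 15. With GW501516 it read 10.50, 10.27, 10.49, 10.20 and 10.32 on day 4, 9.89, 9.84, 10.17, 10.38 and 10.31 on day 8, and 10.38, 10.42, 9.90, 10.25 and 10.09 on day 15. With rosiglitazone it read 10.53, 10.40, 10.54, 10.43 and 10.61 on day 4, 10.51, 9.75, 10.17, 10.17 and 10.41 on day 8, and 10.58, 10.45, 10.43, 10.24 and 10.58 on day 15. Vehicle livers had 10.28 at the lowest, 10.71 at the median and 11.21 at the highest, so that treated medians were all lower but the ranges overlapped with each compound.

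The changes of Slco2a1 were -0.31 ± 0.0643 with WY14643 (adjusted p = 0.000246), -0.45 ± 0.0643 with GW501516 (adjusted p = 1.63e-07) and -0.29 ± 0.0643 with rosiglitazone (adjusted p = 0.000497, limma). Of the 15 treated arrays, 14, 15 and 15 lay under the same-day vehicle mean. All 4 probe sets of the gene were called down with each compound in liver and 0 of 4 in kidney. The 3 comparisons share their vehicle arrays. With the clock components as covariates the WY14643 change was -0.28 (adjusted p = 0.000872), the GW501516 change -0.25 (adjusted p = 0.188) and the rosiglitazone change 0.01 (adjusted p = 0.992). Of 5 endothelial and stellate markers, 1 fell with each compound (Stab2 by 0.13 with WY14643, Des by 0.16 with GW501516 and by 0.18 with rosiglitazone), and 0 rose. Their mean level ran from 8.19 to 8.58 with WY14643, 8.04 to 8.74 with GW501516, 8.19 to 8.72 with rosiglitazone and 8.07 to 8.75 with vehicle. A further fit had cholangiocyte and macrophage marker scores as covariates, and no endothelial or stellate score. In it Slco2a1 changed by -0.31, -0.46 and -0.31 with the 3 compounds.

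**Figure D3:**
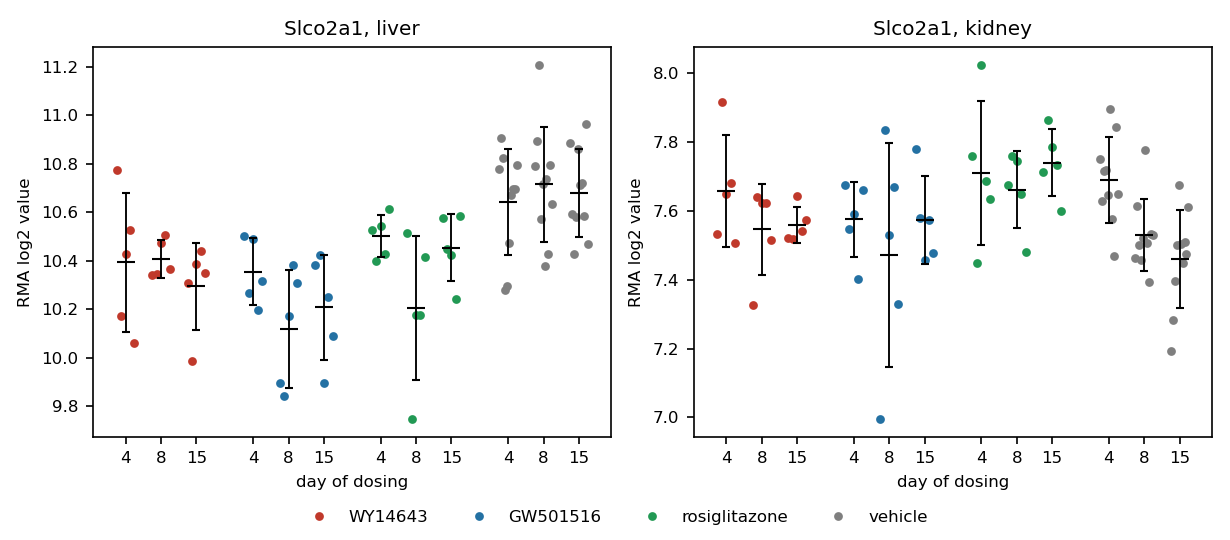
RMA log2 values of Slco2a1 in every array of liver (left) and kidney (right), by compound (WY14643, GW501516, rosiglitazone, then vehicle) and day of dosing, with points for animals and bars for the mean ± SD of each group. In liver the treated means lie below vehicle on each day, and in kidney the groups lie on top of each other (medians 7.57, 7.57 and 7.71 with the compounds and 7.52 with vehicle).

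The other Slco genes that fell with WY14643 in liver were hepatocyte carriers and 1 dim gene. Slco1b2, the main mouse carrier of the family that takes up statins and bile acids, averaged 12.85 ± 0.177 (SD, n = 15) with WY14643 and 13.06 ± 0.169 (SD, n = 30) with vehicle, a change of -0.20 ± 0.050 (adjusted p = 0.00267, limma). Slco2b1, a carrier of steroid sulfates, averaged 11.64 ± 0.326 with WY14643 and 11.88 ± 0.172 with vehicle (-0.24 ± 0.0549, adjusted p = 0.000945). In both genes 12 of 15 treated arrays lay under the vehicle mean and the groups overlapped. Slco4a1, a thyroid hormone carrier, was dim, and changed by -0.30 ± 0.0692 (adjusted p = 0.00142), whereas its other probe set, brighter in liver, gave 0.02. By probe set, 2 of 3 for Slco2b1 and 2 of 5 for Slco1b2 were called down.

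Among the Slc22a genes, Slc22a30, an organic anion transporter gene of rodents, and Slc22a23, whose substrates are not known, also fell with WY14643. Slc22a23 averaged 11.45 ± 0.178 (SD, n = 15) with WY14643 and 11.66 ± 0.155 (SD, n = 30) with vehicle (-0.21 ± 0.0453, adjusted p = 0.000582, limma). It lay under the same-day vehicle mean in 13 of 15 treated livers. Slc22a30 averaged 12.26 ± 0.443 with WY14643 and 12.55 ± 0.153 with vehicle (-0.29 ± 0.0757, adjusted p = 0.00525), and was -0.14 (adjusted p = 0.125) without the 3 animals. The call for Slc22a30 therefore rested in part on those animals, and the call for Slc22a23 was kept without them.

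Slc22a29 and Slc22a27, neighbours of Slc22a30 in a cluster of organic anion transporter genes on chromosome 19, rose with WY14643 from dim levels. Slc22a29 ranged over 3.38 to 8.06 with a median of 5.50 in WY14643 livers and over 4.32 to 6.59 with a median of 4.89 in vehicle livers (0.63 ± 0.200, adjusted p = 0.0283, limma). Slc22a27 ranged over 2.37 to 7.45 with a median of 3.74 in WY14643 livers and over 2.73 to 4.46 with a median of 3.15 in vehicle livers (0.62 ± 0.210, adjusted p = 0.0399). In both genes the highest value came from WY14643, day 15, replicate 2, and without that array the changes were 0.46 and 0.37 and neither was called. Of 75 fits that left out 1 array, 4 lost the Slc22a29 call and 12 the Slc22a27 call. Both calls were also lost without day 8 and with the replicate number as a block. The sequences of this cluster are alike, so that the genes may share signal on the array. Over the 75 livers, deviations of Slc22a27 and Slc22a29 from their group means correlated at 0.77, as a description of arrays that share both probe sets' hybridisation.

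Abcb1a encodes 1 of the rodent P-glycoproteins, a pump that exports drugs. With WY14643 it read 7.12, 6.28, 6.60, 6.60 and 8.08 on day 4, 9.32, 8.16, 8.68, 7.40 and 7.31 on day 8, and 7.51, 7.90, 7.64, 8.29 and 7.38 on day 15. Vehicle livers ran from 5.85 through a median of 7.15 to 7.95, so that day 4 values lay inside the vehicle range apart from 1 and the other days reached above it. The change over days was 0.60 ± 0.163 (adjusted p = 0.00783, limma), and by day it was -0.19, 1.27 and 0.72, with day 8 called (adjusted p = 0.00181). Without day 8 the average over days was not called. With GW501516 the 15 values ran from 7.09 to 8.18 around a median of 7.53, all above the same-day vehicle mean (0.57 ± 0.163, adjusted p = 0.0100). Both probe sets of Abcb1a were called up with both compounds, and with rosiglitazone it was not called (0.31 ± 0.163, adjusted p = 0.206). Abcb1b, the second rodent P-glycoprotein gene, which lies close by and is similar in sequence, was dim and was called with 0 compounds.

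By day, WY14643 gave 7 falls in liver on day 4 (6.45% of all genes called), 1 rise and 1 fall on day 8 (6.32%), and 3 falls on day 15 (2.86%). With array weights the counts were 3 members on day 4 (4.14%), 2 on day 8 (11.1%) and 5 on day 15 (3.15%). The day 4 group held the livers of both WY14643 animals set apart above. Day 4 added Slc22a18 (-0.30, adjusted p = 0.0428) and the proton-coupled extruder Slc47a1 (-0.48, adjusted p = 0.0163) to the falls, and neither was called over all days. Neither day 4 change was refitted without those animals. Slco1a4, a carrier of cardiac glycosides and bile acids, was called on day 15 (-1.34, adjusted p = 0.0143). It changed by -0.80 and 0.65 on days 4 and 8, and the average was not called (-0.50 ± 0.198, adjusted p = 0.0991).

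With GW501516 in liver, 4 members rose and 3 fell, 7 of 51 (13.7%), beside 13.9% of all genes (6.86% up and 7.06% down), so that the share was near that of the array. The falls were Slc22a7 and Slco2a1, described above, and Slc22a18. Beside Abcb1a, the rises were the canalicular pumps Abcc2 and Abcb4 and the ergothioneine carrier Slc22a4. The median change was 0.00 over the members and -0.01 over all genes.

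Abcc2 exports bilirubin glucuronides and other conjugates into bile. It ran from 11.19 through a median of 11.63 to 11.75 in GW501516 livers and from 10.93 through 11.33 to 11.75 in vehicle livers (0.23 ± 0.0695, adjusted p = 0.0141, limma), above the vehicle mean in 13 of 15. Abcb4 moves phosphatidylcholine into bile. It ran from 11.96 through 12.29 to 12.58 in GW501516 livers and from 11.37 through 12.07 to 12.50 in vehicle livers (0.21 ± 0.0674, adjusted p = 0.0268). The ranges overlapped for both genes, whose promoters are printed above, and over the 75 livers their deviations from group means correlated at 0.62, as a description.

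Slc22a4 averaged 7.52 ± 0.220 (SD, n = 15) with GW501516 and 7.27 ± 0.332 (SD, n = 30) with vehicle (0.25 ± 0.0907, adjusted p = 0.0487, limma). It lost its call in 45 of 75 fits that left out 1 array. Slc22a18, an imprinted gene whose substrates are not settled, ran from 10.43 through 10.64 to 10.78 in GW501516 livers and from 10.47 through 10.80 to 11.13 in vehicle livers (-0.19 ± 0.0553, adjusted p = 0.0120), under the vehicle mean in 15 of 15. Both of its probe sets were called down with GW501516 and with rosiglitazone. By day, GW501516 gave 0 calls on day 4 (1.35% of all genes), 3 falls on day 8 (8.83%) and 2 falls on day 15 (4.42%).

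Day 8 with GW501516 added Slc22a15, a carrier of carnitine and related zwitterions in human, at -0.69 (adjusted p = 0.0400, limma), which was not called over all days. With the clock components as covariates 0 of the 7 liver calls with GW501516 were left, and that fit called 485 genes in all, against 2532 without them. In GW501516 livers 8 clock genes rose and 4 fell (Arntl by 1.70), and their part in these results was not tested beyond that fit.

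With rosiglitazone in liver, 1 member rose and 2 fell, 3 of 51 (5.88%), beside 16.2% of all genes (7.48% up and 8.71% down). The falls were Slco2a1 and Slc22a18, and the rise was Slc22a22, the prostaglandin-specific organic anion transporter, which is a kidney gene and was dim in liver. The median change was 0.02 over the members and -0.02 over all genes.

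Slc22a18 ran from 10.42 through a median of 10.59 to 10.93 in rosiglitazone livers and from 10.47 through 10.80 to 11.13 in vehicle livers (-0.19 ± 0.0553, adjusted p = 0.0108, limma), under the same-day vehicle mean in 14 of 15. Its WY14643 change in liver was -0.16 ± 0.0553 and missed the call (adjusted p = 0.0547). Slc22a22 ran from 2.67 through 3.26 to 5.27 in rosiglitazone livers and from 2.58 through 3.06 to 3.59 in vehicle livers (0.49 ± 0.140, adjusted p = 0.00822), above the vehicle mean in 11 of 15. On day 4 alone it changed by 1.18 (adjusted p = 0.00373). By day, rosiglitazone gave 1 rise on day 4 (1.23% of all genes called), 1 rise and 1 fall on day 8 (12.8%) and 0 calls on day 15 (5.34%).

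The rise on day 8 was Slc22a4 (0.49, adjusted p = 0.0270, limma), which was not called with rosiglitazone over the days. In rosiglitazone livers 8 clock genes rose and 4 fell (Arntl by 1.52), and the fit with clock components as covariates called 0 members and 31 genes in all, against 3 members and 2946 genes without them.

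The kidney gave fewer calls. With WY14643, 4 members fell and 0 rose (7.84% of 51), beside 1.74% of all genes called (0.923% up and 0.813% down). Slc22a7 ran from 10.03 through a median of 11.50 to 12.16 in WY14643 kidneys and from 11.38 through 11.78 to 12.24 in vehicle kidneys (-0.33 ± 0.0896, adjusted p = 0.0352, limma). Slc22a8 encodes OAT3, the basolateral carrier that brings organic anions such as penicillin into proximal tubule cells. It ran from 9.47 through 10.29 to 10.84 in WY14643 kidneys and from 10.07 through 10.58 to 11.28 in vehicle kidneys (-0.35 ± 0.0985, adjusted p = 0.0434). The Slc22a8 call was lost in 23 of 75 fits that left out 1 array. In both genes 13 of 15 treated kidneys lay under the same-day vehicle mean and the groups overlapped.

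Slco3a1, a broadly expressed carrier of the Slco family, averaged 10.78 ± 0.198 (SD, n = 15) with WY14643 and 10.95 ± 0.117 (SD, n = 30) with vehicle in kidney (-0.17 ± 0.0421, adjusted p = 0.0111, limma). All 3 of its probe sets were called down. Slc22a18 averaged 11.12 ± 0.146 with WY14643 and 11.26 ± 0.123 with vehicle (-0.14 ± 0.0379, adjusted p = 0.0348). Without the 3 animals Slc22a7 kept its call (-0.26, adjusted p = 0.0179), while Slc22a8 (-0.25, adjusted p = 0.146), Slc22a18 (-0.11, adjusted p = 0.133) and Slco3a1 (-0.15, adjusted p = 0.0566) did not. Leaving out the WY14643 array of day 4, replicate 2 alone moved kidney Slc22a7 to -0.22, without a call. In fits that left out 1 array, the Slc22a7 call was lost in 6 of 75, the Slc22a18 call in 8 and the Slco3a1 call in 0. Slc22a7 also lost its call with array weights and with the replicate number as a block. Without day 8 only Slc22a18 kept its call. Under clock covariates Slc22a7 (-0.32, adjusted p = 0.0869) and Slc22a18 (-0.13, adjusted p = 0.0978) lost their calls, and Slc22a8 and Slco3a1 kept theirs.

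Of 6 early proximal tubule markers, 0 were called with WY14643 or GW501516 in kidney and 1 rose with rosiglitazone (Cubn by 0.08). Of 5 late proximal tubule markers, 1 fell with WY14643 (Acy3 by 0.15) and 2 fell with GW501516 (Slc7a13 by 0.19 and Atp11a by 0.11). The mean of the late markers ran from 11.76 to 12.25 with WY14643, 11.08 to 12.23 with GW501516 and 12.02 to 12.23 with vehicle, and that of the early markers from 11.60 to 12.03, 11.09 to 12.02 and 11.71 to 12.03. A limma fit had as covariates the score of the early markers and a joint score of thick ascending limb and collecting duct markers. The late markers were not in it. In that fit Slc22a8 changed by -0.33 (adjusted p = 0.0112) and Slco3a1 by -0.18 (adjusted p = 0.00945).

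With GW501516 in kidney, 1 member rose and 2 fell, 3 of 51 (5.88%), beside 6.79% of all genes called (3.94% up and 2.85% down). Abcc4, an exporter of cyclic nucleotides and urate, ran from 7.27 through a median of 7.53 to 7.93 in GW501516 kidneys and from 6.86 through 7.38 to 7.67 in vehicle kidneys (0.20 ± 0.0622, adjusted p = 0.0311, limma). Abcc2 averaged 9.46 ± 0.264 (SD, n = 15) with GW501516 and 9.63 ± 0.171 (SD, n = 30) with vehicle (-0.17 ± 0.0479, adjusted p = 0.0189). Slc22a19, an organic anion transporter gene of the kidney known as Oat5, averaged 11.31 ± 0.292 with GW501516 and 11.51 ± 0.183 with vehicle (-0.20 ± 0.0655, adjusted p = 0.0491). Its call was lost in 49 of 75 fits that left out 1 array. The treated and vehicle ranges overlapped for all 3 genes.

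Without the 3 animals Slc22a19 (-0.17, adjusted p = 0.0862) and Abcc4 (0.18, adjusted p = 0.0628) lost their calls and Abcc2 kept its own (-0.14, adjusted p = 0.0479). Leaving out only the deviating kidney array of GW501516, day 8, replicate 1 gave -0.14 (adjusted p = 0.0512) for Abcc2. With the clock components as covariates Abcc4 (0.16, adjusted p = 0.204), Abcc2 (-0.14, adjusted p = 0.147) and Slc22a19 (-0.16, adjusted p = 0.210) were not called. Abcc2 was called on day 8 by itself (-0.41, adjusted p = 0.00134), and Abcb8, a mitochondrial ABC protein, was called up on day 15 (0.40, adjusted p = 0.00872). These were the only member calls of single days in kidney. On days 4, 8 and 15 the kidney shares of all genes called were 0.170%, 9.36% and 1.33% with GW501516, 0.275%, 0.506% and 0.544% with WY14643, and 0%, 0.753% and 0.132% with rosiglitazone. The GW501516 group of day 8 held the deviating array, and day 8 by itself was not refitted without it. With array weights that comparison called 1 member and 1.32% of all genes.

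With rosiglitazone in kidney, 0 members were called by limma, beside 1.52% of all genes (0.907% up and 0.610% down). At an unadjusted p under 0.05 there were 4 members (7.84%) and 9.06% of all genes, and a fit with array weights called 1 member and 4.05% of all genes. The largest changes were 0.25 for Slco2b1 (adjusted p = 0.299) and 0.24 for Abcb1a (adjusted p = 0.836).

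The main secretory carriers of the proximal tubule were among the members without a call. Slc22a6, which encodes OAT1, changed by -0.08 with WY14643 (95% interval -0.16 to 0.01), -0.06 with GW501516 (-0.15 to 0.02) and 0.00 with rosiglitazone (-0.09 to 0.09). Slc22a2, which encodes the organic cation carrier OCT2, changed by 0.06 (-0.01 to 0.13), -0.03 (-0.10 to 0.05) and 0.02 (-0.05 to 0.09). Slc47a1, the extruder that passes cations on to urine, changed by -0.09 (-0.16 to -0.01), -0.02 (-0.10 to 0.05) and -0.01 (-0.08 to 0.06). These intervals leave out a change of 1.5-fold, or 0.58 in log2, in either direction.

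Compounds were compared with each other at the same dose and days, in 3 pairs a tissue, with p-values adjusted over all genes within a pair. In liver WY14643 differed from GW501516 in 4 members (4.55% of all genes called), from rosiglitazone in 9 (17.6%), and GW501516 from rosiglitazone in 2 (3.59%). In kidney the counts were 1 (1.34%), 4 (1.95%) and 0 (1.12%; at an unadjusted p under 0.05, 8 members, or 15.7%, and 13.9% of all genes, limma). Pairs share arrays, so the counts are not independent.

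Slco1a4 and Slco1c1, carriers of bile acids and of thyroxine, differed between WY14643 and rosiglitazone without either compound differing from vehicle at the threshold. Slco1a4 ran from 6.33 through a median of 8.38 to 9.83 in WY14643 livers, from 8.58 through 9.39 to 10.45 in rosiglitazone livers and from 7.05 through 8.98 to 9.91 in vehicle livers. The WY14643 values reached lower than rosiglitazone's whole range, and WY14643 minus rosiglitazone was -0.94 (interval -1.40 to -0.48, adjusted p = 0.00166, limma). GW501516 minus rosiglitazone was -0.75 (-1.21 to -0.29, adjusted p = 0.0470), and lost its call in 25 of 75 fits that left out 1 array. Slco1c1, dim in liver, gave -0.90 for WY14643 minus rosiglitazone (-1.46 to -0.34, adjusted p = 0.0160), and -0.59 (adjusted p = 0.146) without the 3 animals. It also lost its call with clock or cell marker covariates. Slco1a1, the Slco neighbour outside the set, fell by 0.32 with WY14643 in liver.

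Slc22a15 was 0.45 higher with WY14643 than with rosiglitazone (adjusted p = 0.0268, limma), and 0.39 higher (adjusted p = 0.0902) without the 3 animals. That call was also lost with array weights and with clock or cell marker covariates. Slc22a23 was lower with WY14643 than with GW501516 (-0.27, interval -0.37 to -0.16, adjusted p = 0.000486) and than with rosiglitazone (-0.23, -0.34 to -0.13, adjusted p = 0.000652). Slco1b2 was lower with WY14643 than with GW501516 (-0.21, -0.32 to -0.09, adjusted p = 0.0217), as was Slco4a1 (-0.26, adjusted p = 0.0436), by its dimmer probe set in liver. Leaving out the 3 animals gave -0.16 (adjusted p = 0.150) for Slco1b2 and -0.23 (adjusted p = 0.162) for Slco4a1. Abcb4 was higher with GW501516 than with rosiglitazone (0.27, 0.12 to 0.43, adjusted p = 0.0309). With the clock components as covariates Slc22a7 for WY14643 minus rosiglitazone was the only 1 of the 15 liver differences between compounds still called, and the adjusted p of the other 14 ran from 0.0962 to 0.931.

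For Slco2a1 and Slc22a18 the compounds were not told apart in liver. The Slc22a18 differences between compounds were 0.03 for WY14643 minus GW501516 (-0.09 to 0.16), 0.03 for WY14643 minus rosiglitazone (-0.09 to 0.16) and 0.00 for GW501516 minus rosiglitazone (-0.13 to 0.13). In kidney WY14643 was lower than rosiglitazone for Slc22a8 (-0.42, -0.64 to -0.19, adjusted p = 0.0317, limma), Slc22a7 (-0.41, -0.62 to -0.20, adjusted p = 0.0157), Slco3a1 (-0.27, -0.37 to -0.18, adjusted p = 0.000109) and Slc22a18 (-0.18, -0.27 to -0.10, adjusted p = 0.00972). Slc22a13, which encodes the nicotinate and urate carrier OAT10 in human, was higher with WY14643 than with GW501516 (0.32, 0.16 to 0.48, adjusted p = 0.0279). That difference was 0.26 (adjusted p = 0.102) without the 3 animals and was not called without day 8 either, and the Slc22a8 difference was -0.32 (adjusted p = 0.0670) without the 3. Under clock covariates Slc22a7 gave -0.44 (adjusted p = 0.0687) and Slc22a8 -0.19 (adjusted p = 0.585).

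Day 15 was set against day 4 for each compound and tissue, and 0 members were called in any of the 6 comparisons by limma. The shares of all genes called were 0.753%, 0% and 0.132% in liver and 0.0220%, 0.0110% and 0% in kidney with WY14643, GW501516 and rosiglitazone. At an unadjusted p under 0.05 there were 7, 4 and 2 members in liver (13.7%, 7.84% and 3.92%, beside 10.8%, 6.67% and 7.98% of all genes). In kidney there were 5, 3 and 2 (9.80%, 5.88% and 3.92%, beside 5.08%, 5.34% and 3.03% of all genes). With array weights 1 member and 0.115% of all genes were called in kidney with GW501516.

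Liver and kidney were compared within animals, as the difference between the 2 tissues' changes. With WY14643, 4 members differed (4.69% of all genes called), with GW501516 5 (8.18%) and with rosiglitazone 2 (7.22%). Slc22a7 changed less in kidney with WY14643, where liver minus kidney was -0.85 ± 0.126 (adjusted p = 2.30e-06, limma), and with GW501516, where it was -0.54 ± 0.126 (adjusted p = 0.00297). The liver fall of Slco2a1 exceeded the kidney change with each compound, at -0.34 (adjusted p = 0.00651), -0.43 (adjusted p = 0.000253) and -0.44 (adjusted p = 0.000237). Its own kidney changes were 0.03, -0.02 and 0.14, all without a call.

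Abcc2 moved opposite ways with GW501516: it rose in liver and fell in kidney, and the difference was 0.40 (adjusted p = 0.00314, limma). Slc22a4 was called up in liver (0.25) and changed by -0.16 in kidney, a difference of 0.41 (adjusted p = 0.0122). Slco2b1 changed by -0.14 in liver and 0.30 in kidney with GW501516, neither called, and the difference was called (-0.44, adjusted p = 0.00331). With WY14643 the remaining differences were in Slc22a30 (-0.29, adjusted p = 0.0226) and Slc22a23 (-0.27, adjusted p = 0.0190), and with rosiglitazone in Slc22a18 (-0.23, adjusted p = 0.0199). The Slc22a30 difference was -0.18 (adjusted p = 0.221) without the 3 animals and was not called with array weights. With the clock components of both tissues as covariates the Slc22a7 difference with WY14643 kept its call (-0.77, adjusted p = 0.000197), and the other 10 were not called (adjusted p of at least 0.0653).

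**Figure D4:**
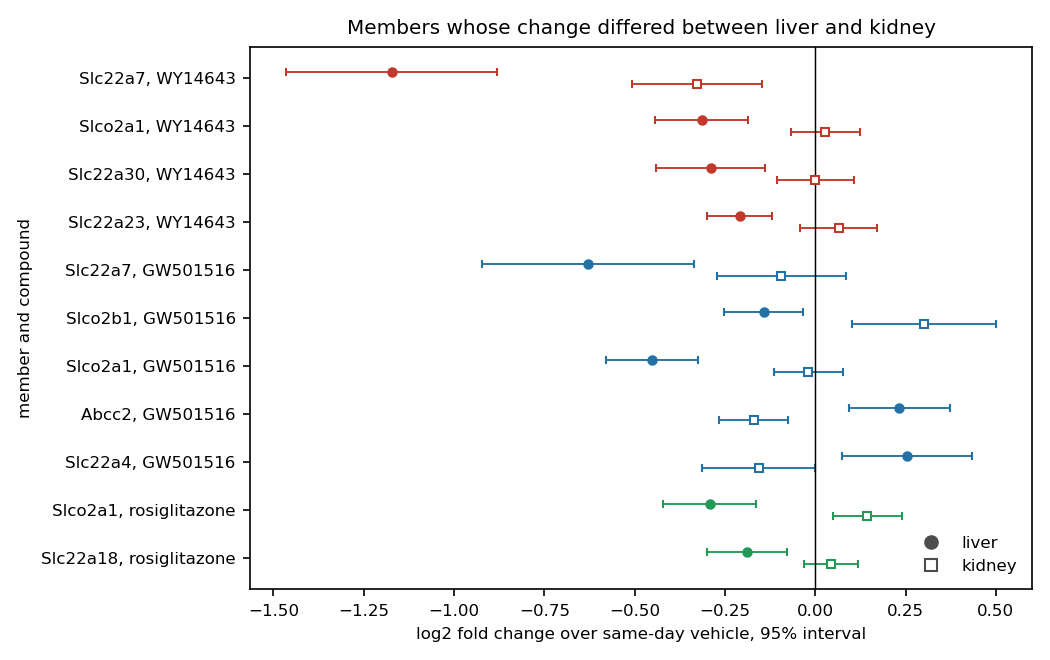
Log2 fold changes over same-day vehicle with 95% intervals in liver (filled circles) and kidney (open squares) for the 11 member and compound pairs whose change differed between tissues at an adjusted p under 0.05. Abcc2 with GW501516 lies above 0 in liver and below it in kidney, and Slco2a1 lies below 0 in liver with each compound and at 0.03, -0.02 and 0.14 in kidney.

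Other transporter genes and regulators gave the setting. Of 12 bile and conjugate transporters outside the set, 4 rose and 2 fell with WY14643 in liver, 5 and 3 with GW501516, and 3 and 3 with rosiglitazone, and in kidney 2 rose and 1 fell, 1 rose and 0 fell, and 0 did either. Slc22a5, the carnitine carrier, rose in liver by 0.70, 0.77 and 0.57 with WY14643, GW501516 and rosiglitazone, and Abcc3, a basolateral exporter of conjugates, by 0.57, 0.62 and 0.34. Slc51b, a subunit of the basolateral bile acid exporter, fell by 1.06 with GW501516 and by 0.95 with rosiglitazone. Averaged over days, the largest called rise of a member in liver was 0.63 (Slc22a29 with WY14643), a call lost in 4 of 75 fits that left out 1 array. No member rose with all 3 compounds, but Slc22a5 and Abcc3 fit the name pattern and were left out of the set. Both statements hold for the set as drawn and are not read as a smaller response of these families.

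Of 10 measured urate and organic anion partners, 1, 2 and 3 fell in liver with WY14643, GW501516 and rosiglitazone and 0 rose. Slc17a3, a urate exporter, fell by 0.26, 0.31 and 0.16, and Slc17a1, a phosphate and urate carrier, fell by 0.58 with GW501516. In kidney 1 fell with WY14643, 1 rose with GW501516 and 2 rose with rosiglitazone. Slc13a2, the dicarboxylate carrier, rose by 0.40 with GW501516 and by 0.39 with rosiglitazone.

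Of 13 measured regulators of transporter genes, 2 rose with WY14643, 5 with GW501516 and 5 with rosiglitazone in liver, where 0, 0 and 1 fell. Nr1i2 (PXR) rose by 0.37, 0.47 and 0.54 and Nr1i3 (CAR) by 0.37, 0.82 and 0.66. Of 8 measured targets of these 2 receptors, 2 rose and 2 fell with WY14643, 3 and 1 with GW501516, and 3 and 0 with rosiglitazone in liver, and 1, 2 and 2 rose in kidney with 0 falls. Cyp2b9 rose by 2.16 in liver with WY14643 and with GW501516. In kidney 1 regulator fell with WY14643 (Ahr by 0.17), 0 were called with GW501516 and 1 rose with rosiglitazone (Ppara by 0.33).

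Of 9 measured NRF2 targets, 2, 1 and 2 fell in liver and 0 rose, and in kidney 0 were called with WY14643, 1 fell with GW501516 and 1 rose with rosiglitazone. Of 5 AHR targets, 1 rose and 1 fell in liver with WY14643 (Tiparp rose by 0.35 and Cyp1a2 fell by 0.65), and 0 were called in the other 5 comparisons by limma. Of 7 hepatocyte markers, 2, 1 and 1 fell in liver with WY14643, GW501516 and rosiglitazone, by at most 0.37 (Tat with GW501516).

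Some members varied widely between animals of the same group. In kidney Slc22a12, the urate carrier URAT1, read 9.58 to 10.57 in 17 of 75 arrays and 10.88 to 12.30 in the rest, with a gap of 0.317 between them, against 0.162 for the next widest gap. The low arrays numbered 5 of 15 with WY14643, 3 of 15 with GW501516, 3 of 15 with rosiglitazone and 6 of 30 with vehicle. The second probe set of Slc22a12 correlated with the first at 0.993 over the arrays. Of the 10 genes most correlated with it over the 75 kidneys, 8 lie on chromosome 19 as Slc22a12 does, among them Nrxn2 (-0.71) and Rela (0.62).

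Slco4c1, the kidney carrier of cardiac glycosides in rat and human, read 2.52 to 4.61 in 18 kidneys and 5.73 to 8.13 in the rest, with a gap of 1.12. The low kidneys numbered 6 of 15 with WY14643, 4 of 15 with GW501516, 3 of 15 with rosiglitazone and 5 of 30 with vehicle. Its 2 probe sets correlated at 0.947, and 5 animals were low for both Slco4c1 and Slc22a12. With such a spread the changes of Slco4c1 in kidney were -0.80 ± 0.509 with WY14643 (adjusted p = 0.712, limma) and -0.67 ± 0.509 with GW501516 (adjusted p = 0.485). Of the 10 genes most correlated with Slco4c1, 3 lie on chromosome 1 with it, Panct2 (0.85) and Pam (-0.65) among them.

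**Figure D5:**
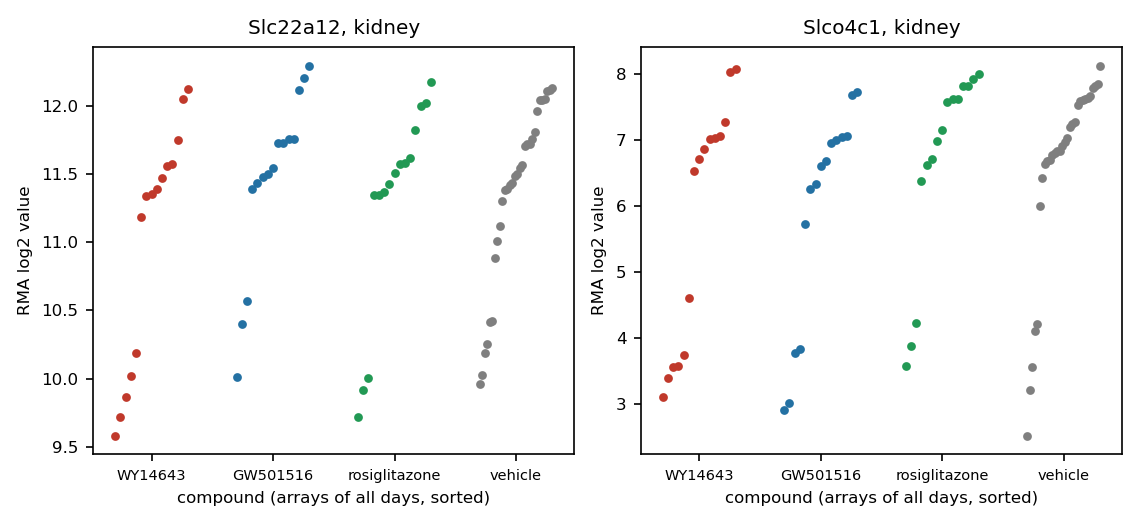
RMA log2 values of Slc22a12 and Slco4c1 in the 75 kidneys, sorted within WY14643, GW501516, rosiglitazone and vehicle over all days. Low values separated from the others appear in each of the 4 groups, 17 for Slc22a12 and 18 for Slco4c1.

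Some members varied together within kidneys. Over the 75 kidneys, deviations from group means correlated at 0.71 for Slc22a2 and Slc22a6, 0.70 for Slc22a4 and Slc22a6, and 0.69 for Slc22a6 and Slc47a1, and at -0.57 for Slco1c1 and Abcb10. These kidneys include the deviating GW501516 array. Its part in the correlations was not tested, since they were not taken without the 3 animals set apart above. Between liver and kidney of the same animal the deviations of Abcb10, a mitochondrial ABC protein, correlated at 0.61, and those of Slc22a7 at 0.53. Without the 3 animals these were 0.78 and 0.29. Over the 51 members the median was -0.01, 26 were below 0, and the lowest was -0.48 (Abcb1b). All are descriptions over arrays that share tissue and processing.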

How the data were processed

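RNA of liver and kidney was hybridised to Affymetrix Mouse Genome 430 2.0 arrays. The authors deposited log2 values for 45101 probe sets on 300 arrays, made with RMA in Partek per the submitters' processing notes, whose versions are not given in the sources used here. The labels' protocols give Qiagen miRNeasy extraction with DNase I, then NuGEN amplification (WT Ovation V2) and biotin labelling (Encore). 0 columns were left unused, and the array medians were 6.12 to 6.26 in liver and 5.05 to 5.38 in kidney. The study's design text spells the PPAR-alpha agonist differently from the sample labels, whose spelling is used.

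Of the probe sets 34945 named 1 gene, 932 several and 9160 none, with 64 controls. Each gene was represented by its brightest probe set, judged by the mean of all arrays. The 51 members had 95 probe sets, 26 members with more than 1. Each tissue was fitted by itself with limma 3.58.1 in R 4.3.3 (lmFit, eBayes with trend), 12 group means and 63 residual degrees of freedom, and two-sided p-values were given Benjamini-Hochberg adjustment over the 18193 genes of each comparison. The number of arrays limits the precision. The tissue difference was fitted on liver minus kidney values of each animal. The same animal number was taken as the same animal in both tissues: deviations from group means correlated at a median of 0.168 within animals and -0.0269 between animals of a group, and 75 of 75 animals were higher with their own. The fit was tested on simulated data.

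The members and lists were chosen with earlier results of these data known, and the acute phase list was added after the data were seen. By the naming rule, members called in a comparison were named, up to 5 each way with group values and up to 5 for differences, as were up to 4 genes per other list. Slc22a7, Slco2a1 and Abcb1a were given by sample beyond that rule, chosen after their values were seen, as were members with 2 ranges of values and some without a call. Closely similar members were treated as uncertain. Alternatives were a fit without trend, array weights, the replicate number as a block, covariates from the clock genes or cell markers, other probe sets, other scalings, pooled vehicle, day 8 left out, dim genes left out, each array left out, 3 animals left out and, for Slc22a7 on day 4, 1 array left out, the last 2 chosen after the data were seen.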

Additional observations from a re-analysis of the deposited data

Results flagged for a closer look

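Among 147 groups of samples of the called members, 14 samples lay far from the others of their group by Dixon's criterion, of which chance gives about 1 in 20 groups. In liver, WY14643 day 15 replicate 2 was highest for Slc22a27 (7.45, nearest 4.10) and Slc22a29 (8.06, nearest 5.87), and vehicle day 8 replicate 8 was highest for the same genes (4.46, nearest 3.46, and 6.59, nearest 5.37). WY14643 day 4 replicate 2 was lowest for Slc22a7 (8.60, nearest 11.02) and Slc22a29 (3.38, nearest 4.99), and it was the animal with the highest acute phase mean. WY14643 day 4 replicate 5 was lowest for Slco2b1 (10.61, nearest 11.36). For Slco4a1, WY14643 day 4 replicate 1 was highest (5.37, nearest 4.99) and WY14643 day 8 replicate 5 lowest (4.66, nearest 4.88). GW501516 day 4 replicate 5 was lowest for Abcc2 (11.40, nearest 11.64), and rosiglitazone day 15 replicate 1 highest for Slc22a22 (4.67, nearest 3.31). In kidney, Slc22a8 was highest in WY14643 day 8 replicate 3 (10.84, nearest 10.30) and in vehicle day 15 replicate 8 (11.28, nearest 10.85), and Slc22a19 was lowest in vehicle day 4 replicate 8 (11.08, nearest 11.38).

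For 11 pairs of a member and a compound the liver change differed from the kidney change within animals, by a limma test of that difference. With WY14643 the liver change minus the kidney change was -0.29 for Slc22a30, -0.85 for Slc22a7, -0.27 for Slc22a23 and -0.34 for Slco2a1. With GW501516 it was 0.41 for Slc22a4, -0.54 for Slc22a7, -0.43 for Slco2a1, -0.44 for Slco2b1 and 0.40 for Abcc2. With rosiglitazone it was -0.23 for Slc22a18 and -0.44 for Slco2a1.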

How the results depend on the processing

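Counts of called members are given first. Where no count over all genes stands beside them, a move is not read as one of the members alone. In kidney, array weights gave 1 member with rosiglitazone (4.05% of all genes called) and 5 for WY14643 minus GW501516 (3.16%). They gave 1 for GW501516 minus rosiglitazone (2.96%) and 1 for day 15 minus day 4 with GW501516 (0.115%). With the replicate number as a block the counts were 6 for WY14643 (1490 of all genes, against 2044) and 4 for GW501516 (2222, against 2532) in liver, and 2 for WY14643 (284, against 316) and 2 for WY14643 minus GW501516 (225, against 244) in kidney. The numbers did not pair samples (median correlation of same-numbered samples 0.00460 in liver and 0.00884 in kidney), and the block changed no other count by over 1.5 times. With clock covariates the liver counts were 0 for GW501516, rosiglitazone, WY14643 minus GW501516 and GW501516 minus rosiglitazone, and 1 for WY14643 minus rosiglitazone. The kidney counts were then 2 for WY14643 and 1 for GW501516, and the liver and kidney differences 2, 0 and 0 for WY14643, GW501516 and rosiglitazone. With cell marker covariates they were 4 for WY14643 minus rosiglitazone and 0 for GW501516 minus rosiglitazone in liver, and 2 for the second pair in kidney.

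Other scalings and probe sets moved mostly small counts. GW501516 minus rosiglitazone gave 1 in liver without the trend, with the mean of probe sets or with centred arrays, and 1 in kidney without dim genes or with quantile normalization. WY14643 minus GW501516 gave 1 in liver with the mean of probe sets, and 2 in kidney with centred arrays or quantile normalization, which gave 5 for GW501516. Without day 8 the counts were 2 for WY14643 minus GW501516 and 0 for GW501516 minus rosiglitazone in liver, 1 for WY14643, 0 for GW501516 and 2 for WY14643 minus GW501516 in kidney, and 2 for the tissue difference of GW501516. Without the 3 animals they were 1 for WY14643 minus GW501516 and 5 for WY14643 minus rosiglitazone in liver, and 2 for WY14643 and 1 for rosiglitazone in kidney.

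Leaving out each of 75 arrays gave 8 to 11 members for WY14643, 5 to 8 for GW501516 and 3 to 4 for rosiglitazone in liver, and 1 to 5, 1 to 5 and 0 to 1 in kidney. The pairs WY14643 minus GW501516, WY14643 minus rosiglitazone and GW501516 minus rosiglitazone gave 1 to 5, 7 to 10 and 0 to 2 in liver and 0 to 3, 3 to 5 and 0 to 2 in kidney. The tissue differences gave 3 to 6, 5 to 7 and 2 to 3. Day 15 minus day 4 gave 0 in these fits.

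Of 58 named member results, kept calls numbered 54 without trend, 53 with array weights, 34 of 47 under the block, 16 with clock covariates, 48 with cell marker covariates, 52 of 52 without dim genes, 56 with the brightest probe set of the tissue, 50 with the mean of probe sets, 56 with centred arrays, 58 with quantile normalization, 36 of 38 with pooled vehicle, 30 without day 8 and 41 without the 3 animals. Liver Slco4a1 turned to 0.024 with WY14643 and to 0.017 for WY14643 minus GW501516 with its other probe set, and liver Slco2a1 to 0.014 with rosiglitazone under clock covariates, and the cause was not tested. Signal limits the 25 members dim in liver and the 17 dim in kidney.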

Other observations

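The animals with low kidney Slc22a12 or Slco4c1 were spread over all compounds and vehicle, and nothing in the labels divides the animals that way. Of the 10 genes most correlated with each, 8 lay on its own chromosome for Slc22a12 and 3 for Slco4c1. The share of all genes on these chromosomes was not taken. Values of both probe sets of each gene moved together (0.993 and 0.947).

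In liver 0 of 5 macrophage, 0 of 4 cholangiocyte and 0 of 3 red blood cell markers were called with WY14643 or GW501516, and 0, 0 and 1 (Slc4a1, by -0.56) with rosiglitazone. In kidney 1 of 5 macrophage markers fell with WY14643 (Csf1r by 0.37), 1 of 3 distal convoluted tubule markers rose with WY14643 (Trpm6 by 0.39) and with GW501516 (Pvalb by 0.22), 1 of 5 principal cell markers rose with GW501516 (Aqp3 by 0.20), and 0 of 4 thick ascending limb, 0 of 3 podocyte and 0 of 3 intercalated cell markers were called with any compound. Among 3 measured red blood cell markers 1 fell in kidney with GW501516 (Alas2 by 0.39), and among 3 measured adipocyte markers 1 fell in liver with rosiglitazone (Lep by 0.19). Of the 8 acute phase genes, 2 rose with WY14643 and 1 fell with rosiglitazone in liver.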
